A study of Mus musculus with 53 samples.

Results

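H2A.Z was targeted by RNA interference in mouse embryonic fibroblasts (MEF) labelled as an Anp32e knockout. The RNA of these cells was compared with that of cells of the same genotype given a control siRNA. The comparison holds 6 of the 53 samples of the series, 3 libraries labelled ANP32E-KO with NT siRNA (KO NT) and 3 labelled ANP32E-KO with H2AZ siRNA (KO H2AZ). Members were all genes with at least 1 RPKM (reads scaled to gene length and to the reads of the library) in at least 3 of the 12 libraries of the siRNA table, which kept 12668 of the 43432 genes listed. Both groups carry the Anp32e knockout, so the genotype does not differ within the comparison. The sources used here do not state whether the groups also differed in handling. The 6 matching wild-type (WT) libraries, 3 with NT siRNA and 3 with H2AZ siRNA, entered the same fit and were used to ask whether the effect of the siRNA differed between genotypes. The sources used here do not state the knockout allele, the siRNA sequences, their dose or the time of harvest. The 31 CUT&Tag samples and 10 RNA libraries from cells given DAC or DMSO were not analysed here.

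H2A.Z is a variant of histone H2A that is placed at promoters and enhancers by the SRCAP and p400-TIP60 complexes, and it is encoded in the mouse by a pair of genes, H2afz (H2az1 in RefSeq) and H2afv (H2az2 in RefSeq). ANP32E is a histone chaperone that takes H2A.Z out of nucleosomes. Loss of H2A.Z is known to release some genes from repression, among them Cdkn1a, which encodes the cell-cycle inhibitor p21 and is a classical target of the transcription factor p53.

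Sequencing depth was similar across the 6 libraries, at 38852374 to 45682652 reads in the KO NT group and 42095891 to 47172427 in the KO H2AZ group, so that 1 read in a gene of 1 kb was worth 0.0212 to 0.0257 RPKM. The genes of 7SL RNA, a small cytoplasmic RNA, took 18.0 to 21.4% of reads with NT siRNA and 19.6 to 21.6% with H2AZ siRNA, and 14.1 to 16.3% in WT. KO NT replicate 1 lay apart from the other libraries of its group on the first principal component, at 21.6 against 29.3 and 33.2. Some of the counts that it moved by over 1.5 times are given without it. Xist reached at most 0.00144 RPKM in the KO libraries and 4.12 to 6.33 RPKM in WT, while Ddx3y, on the Y chromosome, was at 3.08 to 6.73 RPKM in KO and at 0 in WT. The sex of the cells and the genotype therefore cannot be told apart in any comparison with WT, although the siRNA comparison within KO is not touched by this.

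The knocked-out gene was read first. Anp32e (chr3:95929245-95947387, mm10) was at 5.68, 4.53 and 5.01 RPKM in the KO NT libraries and at 6.12, 4.36 and 5.64 RPKM in the KO H2AZ libraries, against a mean of 19.3 ± 1.77 RPKM in WT NT (SD, n = 3). RNA of the gene was thus still read in the knockout, and whether it lies outside the altered part of the gene cannot be told from a value over the whole gene. The libraries of both KO groups overlapped. The log2 change with H2AZ siRNA was 0.06 ± 0.11 (SE, n = 3 per group), with a 95% interval from -0.17 to 0.30 and an adjusted p of 0.716 by limma.

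H2AZ siRNA lowered the RNA of both H2A.Z genes. H2afz (chr3:137864487-137866922) was at 199, 198 and 184 RPKM in the KO NT libraries and at 26.9, 26.4 and 30.4 RPKM in the KO H2AZ libraries. Every treated library lay far below every control library, and 14.4% of the control level was left. The log2 change on the log2(RPKM + 1) scale, which is used for all changes here, was -2.75 ± 0.05 (SE, n = 3 per group) with an adjusted p of 9.9e-11. H2afv (chr11:6427226-6444511) went from 21.7, 22.1 and 23.7 RPKM to 2.46, 2.65 and 3.93 RPKM. This was a log2 change of -2.57 ± 0.12 with an adjusted p of 2.4e-07, again with no overlap. Summed over both genes, H2A.Z RNA fell from 216 ± 7.45 to 30.9 ± 2.97 RPKM (SD, n = 3), so that H2afz made up most of the RNA both before and after the treatment.

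A pair of gene models without an established role moved with them and were looked at after their values were seen. Gm8203, annotated by RefSeq as a pseudogene (chr6:116173632-116174497), went from 222 ± 11.05 to 32.2 ± 1.68 RPKM, a log2 change of -2.75. Gm26623 went from 20.2 ± 1.79 to 3.13 ± 0.242 RPKM, a log2 change of -2.36. The sources used here do not state how reads that match several places were handled, so whether these reads came from H2afz or H2afv was not tested.

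**Figure D1:**
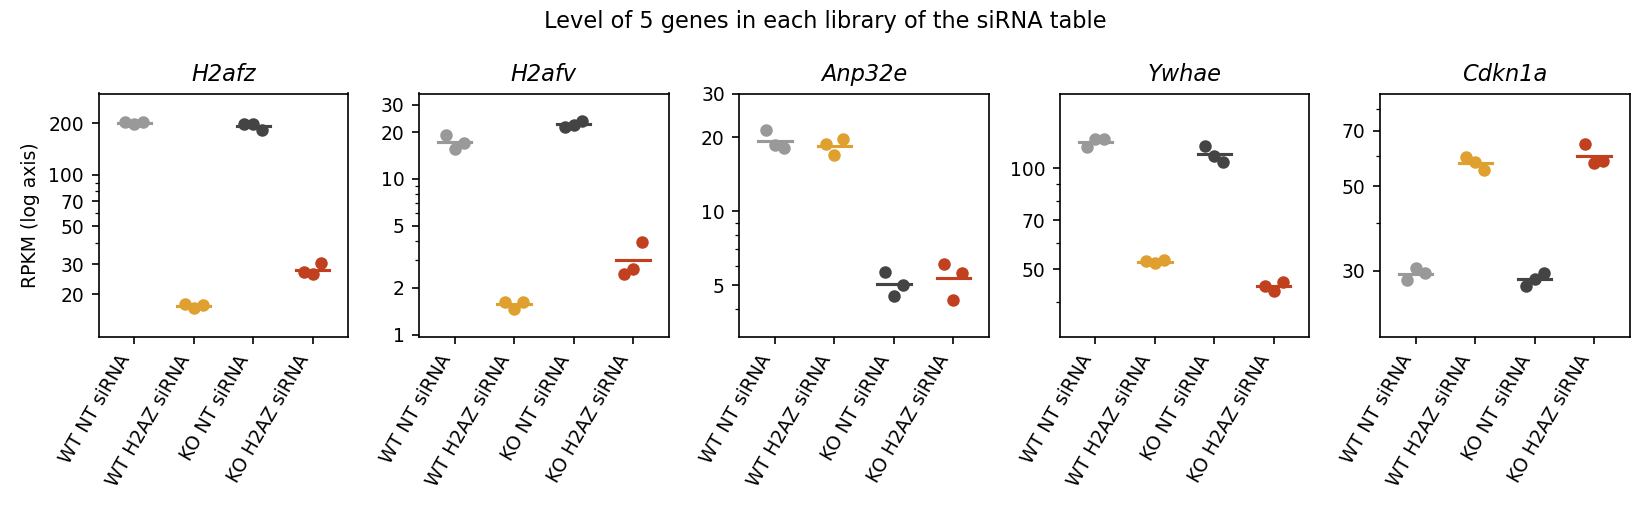
RPKM (log axis, a different range in each panel) of H2afz, H2afv, Anp32e, Ywhae and Cdkn1a in each library, with 3 points per group and a line at the group mean. Within KO, H2afz, H2afv and Ywhae were lower in all 3 H2AZ siRNA libraries than in any NT siRNA library, Cdkn1a was higher in all 3, and the Anp32e libraries overlapped.

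Across all genes, many changes were called but most were small. With limma at an adjusted p under 0.05, 831 genes (6.56% of those tested) were higher with H2AZ siRNA and 2404 (19% of those tested) were lower. The median log2 change was 0.26 among the higher genes and -0.30 among the lower genes, and 96.0% and 94.0% of them changed by less than 1.5-fold. Of all genes tested 3 rose (0.0237%) and 16 fell (0.126%) by at least 2-fold, and 33 rose (0.26%) and 144 fell (1.14%) by at least 1.5-fold. The libraries of both groups did not overlap for 806 of the higher and 2353 of the lower genes, which is to be read against 4936 genes without overlap in all (39% of those tested).

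The split between higher and lower genes depended on the scaling. The median change over all genes tested was -0.06 as deposited and 0.03 after the log2 values of each library were centred on their median. With centring, 2010 genes were higher (15.9%) and 1367 lower (10.8%), so the larger number of lower genes was not kept. It was kept after rescaling without the 7SL RNA genes (1024 higher, 2549 lower). Limma-voom on reads recovered from the RPKM values also kept it (854 higher, 2552 lower). Among the 831 higher genes 830 were also called after centring, and among the 2404 lower genes 1365 were. The number of higher genes was 427 without KO H2AZ replicate 1, 478 without KO NT replicate 3, 553 without KO NT replicate 2 and 476 when only the KO libraries were fitted, while the number of lower genes was 1513 without KO H2AZ replicate 2.

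The direction of change went with the level of the gene. Among 2639 genes with a mean under 2 RPKM in KO, 78 were higher and 367 lower, and among 5531 genes from 2 to 10 RPKM, 277 were higher and 1244 lower. At 50 RPKM or more the balance was the other way, with 204 higher and 115 lower of 1245 genes. After centring, the lowest class was even (207 higher, 202 lower) and the highest class kept its tilt (362 higher, 39 lower). Genes that rose had shorter gene models, with a median of 2766 bases as solved from the RPKM values, than genes that fell (3422 bases) and genes that were not called (3135 bases), and these medians are a description with no test.

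**Figure D2:**
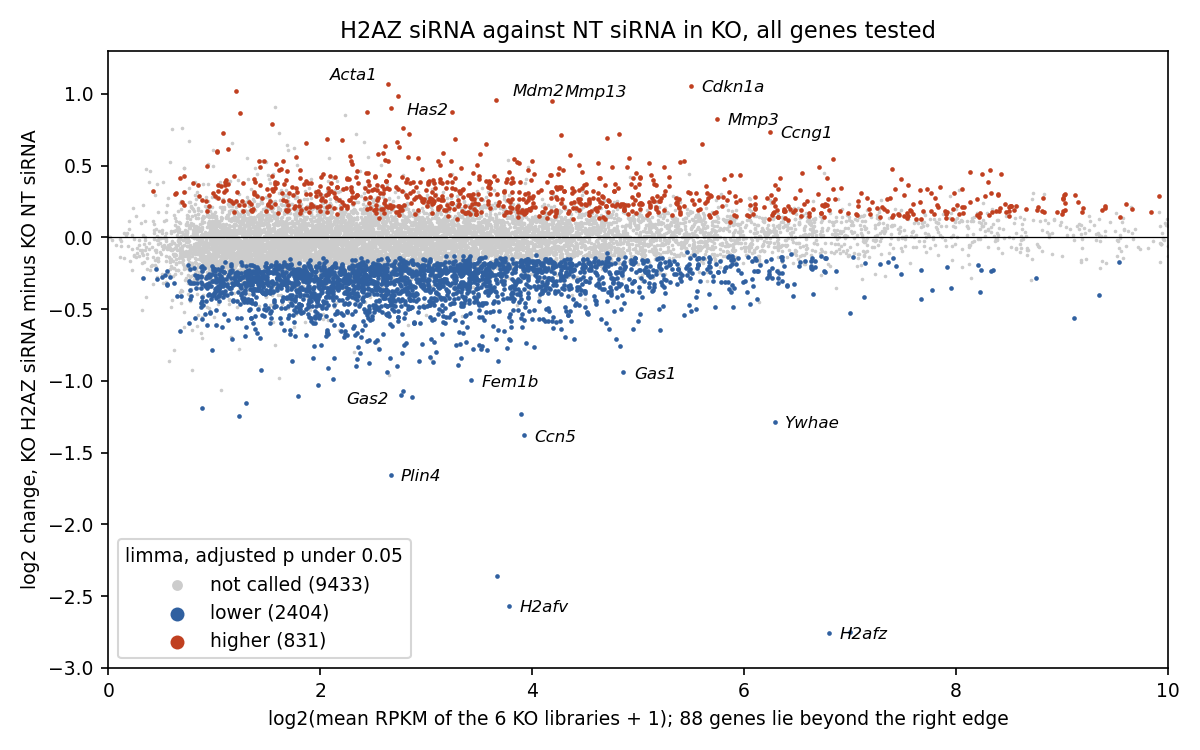
Log2 change with H2AZ siRNA in KO (vertical axis) against the mean level of the 6 KO libraries as log2(RPKM + 1) (horizontal axis), 1 point per gene, red for the 831 higher genes, blue for the 2404 lower genes and grey for genes not called. H2afz and H2afv lie below every other labelled gene, and most called genes lie within 1.5-fold of 0.

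Among the 14 genes that rose most, Cdkn1a had the lowest adjusted p. Cdkn1a (chr17:29090979-29100722), the gene of p21, an inhibitor of cyclin-dependent kinases, was at 27.3, 28.5 and 29.5 RPKM in the KO NT libraries and at 64.7, 57.6 and 58.3 RPKM in the KO H2AZ libraries. All 3 treated libraries lay above all 3 controls. The log2 change was 1.05 ± 0.05 with an adjusted p of 9.4e-07. Mdm2 (chr10:117688875-117710758), which encodes the ubiquitin ligase that degrades p53 and is itself induced by p53, went from 9.07, 6.85 and 6.72 to 20.02, 14.3 and 12.9 RPKM, a log2 change of 0.96 ± 0.16 with an adjusted p of 0.0016. Replicate 1 had the highest Mdm2 value in both groups. Ccng1, the gene of cyclin G1 and another p53 target, went from 60.7, 45.7 and 61.7 to 93.8, 90.3 and 95.8 RPKM, a log2 change of 0.74.

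Acta1, Has2 and a pair of matrix metalloproteinase genes were also among the largest increases. Acta1, the gene of skeletal muscle alpha-actin, went from 3.23, 3.06 and 2.73 to 8.49, 7.90 and 6.01 RPKM (log2 change 1.07 ± 0.11, adjusted p = 0.00011). Has2, which encodes a hyaluronan synthase, went from 4.45, 2.95 and 3.04 to 9.17, 7.46 and 6.80 RPKM, a log2 change of 0.98. Matrix metalloproteinases degrade collagens and other matrix proteins. Mmp13 went from 12.4, 10.3 and 11.6 to 21.0, 21.3 and 27.03 RPKM (log2 change 0.95), and Mmp3 from 36.1, 37.6 and 39.0 to 60.9, 62.8 and 79.9 RPKM (log2 change 0.83). Plaur, the receptor of urokinase, rose from a mean of 20.3 ± 2.21 to 34.3 ± 5.68 RPKM.

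The rest of the 14 largest increases were Prl2c3 (0.90), Prl2c2 (0.87), Inhba (0.76), Ddias (0.72), Mapk6 (0.71) and Ckap2 (0.69), given as log2 changes. Prl2c2 and Prl2c3 encode proliferins and are near-identical copies, so their values are uncertain. Ddias encodes a DNA damage-induced apoptosis suppressor, Mapk6 the atypical kinase ERK3, and Ckap2 a protein of the mitotic spindle. Inhba, which encodes the beta-A subunit of activin, had 5.24, 3.69 and 3.18 RPKM with NT siRNA and 10.98, 6.29 and 5.83 RPKM with H2AZ siRNA, with replicate 1 highest in both groups. Its adjusted p was 0.02 but it rose to 0.0717 with no filter on low genes, 0.0661 with only the KO libraries, 0.0507 without KO NT replicate 2, 0.0763 without KO NT replicate 3 and 0.0586 without KO H2AZ replicate 1.

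Plin4 (chr17:56100587-56109948), which encodes a protein that coats lipid droplets, went from 8.84, 9.10 and 7.86 to 1.96, 1.61 and 2.64 RPKM, a log2 change of -1.66 ± 0.12 with an adjusted p of 1.7e-05. After the H2A.Z genes and the 2 gene models above it had the largest fall of the genes named here. Ccn5, a secreted matricellular protein of the CCN family, went from 19.2, 20.7 and 22.6 to 7.35, 5.84 and 9.31 RPKM, a log2 change of -1.38 ± 0.15. Ywhae (chr11:75732887-75765841), the epsilon isoform of the 14-3-3 phosphoprotein-binding family, had the lowest adjusted p of these genes. It was at 117, 109 and 105 RPKM with NT siRNA and at 44.5, 43.2 and 45.8 RPKM with H2AZ siRNA, a log2 change of -1.29 ± 0.05 with an adjusted p of 2.0e-08, so that 40.4% of its RNA was left.

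Gas2 and Gas1, first described as genes expressed in growth-arrested fibroblasts, fell by 1.10 and 0.94 on the log2 scale, Gas1 from 37.3, 33.3 and 41.0 to 18.2, 16.5 and 22.2 RPKM. GAS1 is also a co-receptor of Hedgehog ligands at the cell surface. Fem1b, a substrate receptor of a CUL2 ubiquitin ligase, fell from 13.3 ± 0.793 to 6.17 ± 0.601 RPKM.

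B9d1, a protein of the transition zone of the primary cilium, went from 5.99, 5.04 and 5.67 to 2.53, 2.59 and 2.45 RPKM (log2 change -0.90 ± 0.08). Fam92a, which has been linked to the base of the cilium, fell by 1.07 on the log2 scale. A4galt, a glycosyltransferase that makes the Gb3 glycolipid, went from 7.11, 7.89 and 7.53 to 2.88, 3.04 and 5.13 RPKM, with KO H2AZ replicate 3 nearest to the controls. C1qtnf12 (log2 change -0.89), a secreted adipokine, and Morn2 (log2 change -0.87) were also among the largest falls.

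Among lists with at least 10 tested members, the p53 targets had the largest share of members called in the same direction. The protein p53 is a transcription factor that is held low by MDM2 and, when stabilised, turns on genes that arrest the cell cycle, repair DNA or promote apoptosis. Of 34 genes listed, 32 were tested, 22 were higher (against 6.56% of all genes) and 2 were lower (against 19%). Their median log2 change was 0.43, against -0.06 over all genes tested. After centring 25 were higher and 1 lower, against 15.9% higher and 10.8% lower over all genes. Counts after centring in the lists below are to be read against these shares. Without KO NT replicate 1 and WT NT replicate 1 together the counts were 22 and 2.

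For the genes whose RefSeq promoter holds a match to the p53 consensus, stretches of the promoter are printed to show the match. RefSeq promoters (GRCm38.p6, from 250 bases before to 50 bases after the annotated start) were searched for the 20-base p53 consensus, made of a pair of 10-base half-sites with no spacer. C was required at positions 4 and 14, G at positions 7 and 17, and at most 3 mismatches elsewhere, which reads the same on both strands. Such a match was present in 453 of 32851 promoters (1.38%). Of the 32 tested members 25 had a promoter in the table. A match was found in 7 of the 18 that rose and in 2 of the 7 that did not. The stretches below run 5′ to 3′ along the strand of the gene, and capitals mark the 20 matched bases. Cdkn1a, Ccng1 and Gtse1 had 1 mismatch, Ckap2 and Zfp365 had 2, and Sesn1, which fell, had 3.
Cdkn1a, chr17:29090868-29090998, plus strand: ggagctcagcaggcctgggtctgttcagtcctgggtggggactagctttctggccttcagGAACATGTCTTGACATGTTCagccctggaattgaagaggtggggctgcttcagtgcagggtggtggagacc
Ccng1, chr11:40755402-40755536, minus strand: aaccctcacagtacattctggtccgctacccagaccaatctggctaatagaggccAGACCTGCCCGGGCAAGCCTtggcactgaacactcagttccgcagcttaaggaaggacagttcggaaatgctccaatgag
Gtse1, chr15:85859885-85859965, plus strand: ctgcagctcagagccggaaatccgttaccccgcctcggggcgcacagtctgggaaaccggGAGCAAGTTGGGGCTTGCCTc
Ckap2, chr8:22185943-22186069, minus strand: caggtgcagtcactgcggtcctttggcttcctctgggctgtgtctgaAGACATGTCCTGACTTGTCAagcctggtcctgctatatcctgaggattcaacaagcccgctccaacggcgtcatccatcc
Zfp365, chr10:67912646-67912785, minus strand: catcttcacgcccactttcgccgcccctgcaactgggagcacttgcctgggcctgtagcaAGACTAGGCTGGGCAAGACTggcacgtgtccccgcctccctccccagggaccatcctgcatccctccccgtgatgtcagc
Sesn1, chr10:41887206-41887345, plus strand: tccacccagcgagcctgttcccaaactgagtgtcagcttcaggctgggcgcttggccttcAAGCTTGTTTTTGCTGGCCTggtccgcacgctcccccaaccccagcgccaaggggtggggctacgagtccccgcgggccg

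Aen and Bbc3, which rose, and Tigar, which was not called, also had a match with 3 mismatches. No match in this window was found at Mdm2, Bax or the other members with an entry, which says only that these letters are not in it. A match is a description of the sequence, and binding of p53 was not measured here.

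Other higher p53 targets include regulators of the cell cycle and of p53, whereas Gadd45a, Plk3 and Ccnd1, which also act in the cell cycle, were not called. Gtse1, which restrains p53, went from 19.9, 19.6 and 18.1 to 28.9, 28.6 and 26.4 RPKM, a log2 change of 0.52 ± 0.05. Btg2, an antiproliferative gene, rose by 0.38, and Plk2, a polo-like kinase, went from 29.7, 28.5 and 27.4 to 41.6, 39.6 and 35.9 RPKM, a log2 change of 0.43 ± 0.05. Zmat3, an RNA-binding protein gene, rose by 0.47. In each of these genes all 3 treated libraries lay above the controls.

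Among the targets that act in cell death, Bax, a pore-forming BCL2 relative, went from 95.3, 89.0 and 95.1 to 131, 123 and 119 RPKM, a log2 change of 0.41 ± 0.05. Phlda3, an inhibitor of AKT, went from 32.9, 33.6 and 34.2 to 53.4, 49.4 and 43.9 RPKM, a log2 change of 0.53. Higher calls at lower levels were Bbc3, the gene of PUMA (log2 change 0.24), Tnfrsf10b, a death receptor (0.38), Eda2r, a receptor of the TNF family (0.58), Aen, a nuclease (0.55), Perp (0.47) and Trp53inp1 (0.53). The call of Trp53inp1 had an adjusted p of 0.045 and was lost when any 1 of 5 KO libraries was left out, all except KO NT replicate 1 (adjusted p from 0.0592 to 0.14). Fas (log2 change 0.28, adjusted p = 0.062) and Pmaip1, the gene of NOXA (0.03, adjusted p = 0.8), were not called, and Fas had an adjusted p of 0.0281 with replicate number as a block.

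The remaining higher members were Ckap2 and Sesn2 (log2 changes 0.69 and 0.68), Polk, a translesion DNA polymerase (0.59), Dcxr (0.58), Zfp365 (0.46), Ddit4l (0.41) and Ano3 (0.40, a call lost without KO H2AZ replicate 1). The 2 lower members were Sesn1, a stress-induced regulator of mTORC1, from 5.11, 4.84 and 5.19 to 3.58, 3.26 and 3.78 RPKM (log2 change -0.41), and Pltp, a phospholipid transfer protein, at -0.31, a call lost after centring (adjusted p = 0.0903). The sestrin genes Sesn1 and Sesn2 thus changed in opposite directions. Ephx1 (0.16), Plk3 (0.18), Ccnd1 (0.05), Gadd45a (-0.03), Rrm2b (-0.07) and Tigar (-0.07) were not called, and Gdf15 and Trp53cor1 were below the filter.

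**Figure D3:**
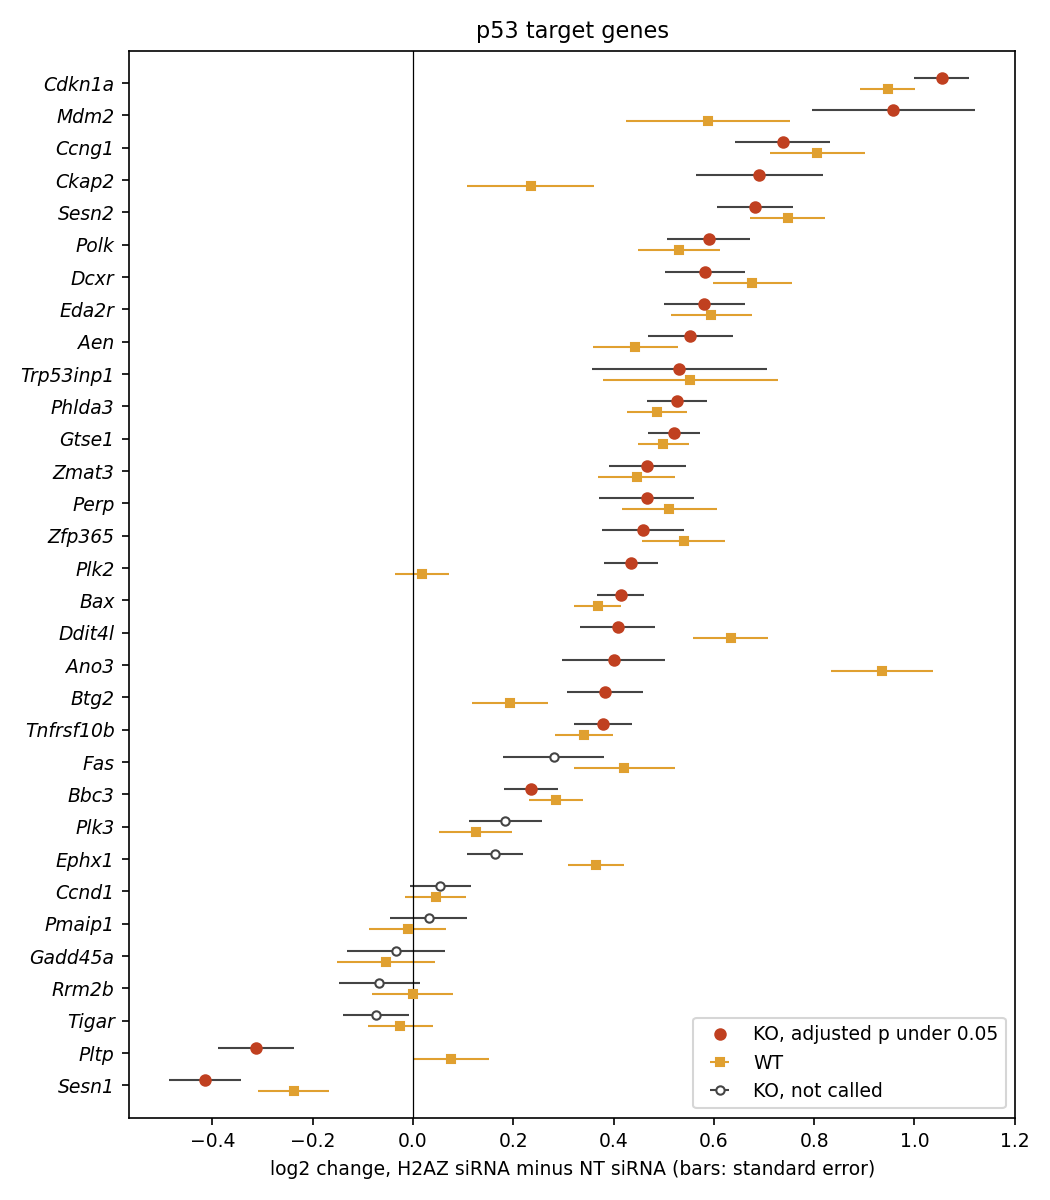
Log2 change with H2AZ siRNA for the 32 tested p53 targets, in KO (circles, red where the adjusted p was under 0.05 and white otherwise) and in WT (orange squares), with standard errors as bars. In KO 22 genes lie to the right of 0 as calls and Sesn1 and Pltp to the left.

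Of 16 genes of cell-cycle inhibitors and D cyclins, Cdkn1a was the 1 called higher and 4 were lower (3 and 3 after centring). The shares over all genes were 6.56% higher and 19% lower. Cdkn1b, the gene of the inhibitor p27, went from 17.5, 14.5 and 15.8 to 9.76, 9.46 and 10.7 RPKM, a log2 change of -0.62 ± 0.08 with an adjusted p of 0.00025. Rbl2, the gene of the pocket protein p130 that keeps cells quiescent, fell by 0.39, and Ccnd3, the gene of cyclin D3, by 0.33.

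Of 36 G2/M and mitosis genes 4 were higher and 1 was lower (9 and 0 after centring), with a median log2 change of 0.03. Over all genes 6.56% were higher and 19% lower, or 15.9% and 10.8% after centring. Ccnb1, the gene of cyclin B1, had a log2 change of 0.16, and Prc1, a protein that bundles spindle microtubules, 0.21. Leaving out KO NT replicate 2 or 3, or KO H2AZ replicate 1 or 2, left 1 higher gene, and 2 were left without KO H2AZ replicate 3. Of 41 DNA replication and S phase genes 9 were lower and 1 was higher as deposited (2 lower and 4 higher after centring), and the lower share lay near the 19% over all genes. Rrm2, a subunit of ribonucleotide reductase, rose by 0.28, a call lost without KO H2AZ replicate 1. The number of lower genes was 3 with only the KO libraries, 5 without KO NT replicate 3 or KO H2AZ replicate 2, and 4 without KO H2AZ replicate 1.

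Immediate early genes are switched on by growth factors and stress without new protein synthesis. Of 25 tested, 9 were higher and 0 lower by limma (2 lower at an unadjusted p under 0.05, 0 by limma-voom, and 13 higher and 0 lower after centring), with a median log2 change of 0.13. Over all genes 6.56% were higher, and 15.9% after centring. Dusp5, a phosphatase of ERK, went from 6.99, 6.63 and 6.35 to 12.2, 9.40 and 8.79 RPKM (log2 change 0.53 ± 0.10), with replicate 1 highest in both groups. Fosl1, the AP-1 subunit FRA1, went from 17.8, 17.1 and 16.1 to 26.7, 24.8 and 22.3 RPKM (log2 change 0.50), and Klf4, a zinc-finger transcription factor, rose by 0.43. Btg2 belongs to this list and to the p53 targets.

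Of 34 genes of the unfolded-protein and amino-acid stress responses, 11 were higher and 2 lower (17 and 1 after centring), against 6.56% higher over all genes, and 7 were higher when only the KO libraries were fitted. Sesn2, which senses leucine and belongs also to the p53 targets, went from 6.70, 6.57 and 5.95 to 11.7, 11.05 and 9.97 RPKM (log2 change 0.68 ± 0.08). Cth, the enzyme that makes cysteine from cystathionine, rose by 0.39, and Hsp90b1, the chaperone GRP94 of the endoplasmic reticulum, went from 168, 141 and 144 to 190, 193 and 189 RPKM (log2 change 0.34). Psph, the last enzyme of serine synthesis, fell by 0.25. The number of lower genes was 1 without KO NT replicate 3 or KO H2AZ replicate 2.

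Of 30 NRF2 targets and antioxidant genes 4 were higher and 7 lower (7 and 3 after centring). The shares of all genes were 6.56% and 19% as deposited, and 15.9% and 10.8% after centring. The lower share thus lay near that over all genes under both scalings. Hmox1, the haem-degrading enzyme, went from 29.3, 30.5 and 31.6 to 44.7, 43.6 and 41.6 RPKM (log2 change 0.49 ± 0.06). Sod1, the cytosolic superoxide dismutase, went the other way, from 337.5, 335 and 342 to 275, 255.8 and 248 RPKM (log2 change -0.38 ± 0.04, adjusted p = 0.00014).

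Interferon-stimulated genes encode antiviral proteins. Of 46 tested, 15 were lower and 2 were higher, with a median log2 change of -0.18, against 19% lower over all genes. After centring 8 were lower and 2 higher, against 10.8% lower over all genes. The number of lower genes was 8 without KO NT replicate 3, and also 8 without KO H2AZ replicate 1 or without KO H2AZ replicate 2. Rtp4, a chaperone of opioid receptors induced by interferon, went from 13.04, 12.3 and 14.3 to 8.05, 6.54 and 9.04 RPKM (log2 change -0.69 ± 0.10). Isg15, a ubiquitin-like modifier, went from 27.03, 30.5 and 36.2 to 23.0, 15.9 and 20.5 RPKM (log2 change -0.64). Ccl5 and Rsad2 were higher, at low levels, by 0.32 and 0.29, the call of Rsad2 being lost without KO H2AZ replicate 1. The summed level of the list was 1069 to 1174 RPKM with NT siRNA and 957 to 1148 RPKM with H2AZ siRNA, so the groups overlapped in the sum.

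Inflammatory and senescence-secreted genes had 7 higher and 4 lower of 26 (9 and 2 after centring), against 6.56% and 19% of all genes. Besides Mmp13 and Mmp3, Areg, a ligand of the EGF receptor, was higher by 0.47. Ccl7, a monocyte chemokine, went from 8.61, 5.34 and 9.26 to 3.68, 3.62 and 5.06 RPKM (log2 change -0.75 ± 0.20, adjusted p = 0.018). Its call was lost without KO NT replicate 1 or 3 or KO H2AZ replicate 1 or 2 (adjusted p from 0.0571 to 0.0726). The number of lower members was 1 without KO NT replicate 3 or KO H2AZ replicate 2, and 2 without KO NT replicate 1 or KO H2AZ replicate 1.

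Among 23 matrix proteases and inhibitors 6 were higher and 6 lower (9 and 5 after centring), against 6.56% and 19% of all genes. Adamts1 and Adamts5, proteases that cleave proteoglycans, fell by 0.64 and 0.52. The metalloproteinases did not all move one way, since Mmp14 fell from a mean of 59.8 to 48.0 RPKM (log2 change -0.31) and Mmp11 from 11.4 to 9.11 RPKM (-0.30), while Mmp3, Mmp10 and Mmp13 rose. Of 48 collagen and matrix genes 12 were lower and 4 higher (5 and 8 after centring), against 19% and 6.56% of all genes. Both centred counts lay near the 10.8% lower and 15.9% higher over all genes after centring. Only 3 were lower without KO H2AZ replicate 2 and 4 without KO NT replicate 1. Thbs1, the gene of thrombospondin 1, went from 180, 150 and 150 to 131, 118 and 109 RPKM (log2 change -0.42). Col8a1, a short-chain collagen, rose by 0.31.

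Genes of TGF-beta and BMP signalling were grouped by role. Of 41 tested, 3 were higher and 10 lower (6 and 8 after centring), against 6.56% and 19% of all genes. With centring the shares of all genes were 15.9% and 10.8%. Among ligands, Tgfb3 went from 27.2, 23.8 and 25.3 to 17.5, 16.8 and 19.3 RPKM (log2 change -0.49 ± 0.07) and Gdf6 fell by 0.56, while Inhba rose. Grem1, a secreted BMP antagonist, went from 9.61, 7.68 and 7.46 to 14.6, 11.9 and 13.9 RPKM, a log2 change of 0.65 ± 0.12. Tgfbi, an extracellular protein induced by TGF-beta, went from 22.7, 24.4 and 27.6 to 11.5, 14.3 and 19.5 RPKM (log2 change -0.71 ± 0.17).

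Of 22 Wnt pathway genes 0 were higher and 6 lower by limma, against 6.56% and 19% of all genes. Their median log2 change was -0.14, and 1 was higher and 5 lower after centring. At an unadjusted p under 0.05 or by limma-voom 0 were higher. The Wnt receptors Fzd4 and Fzd8 fell by 0.55 and 0.41, and Sfrp2, a secreted modulator of Wnt ligands, went from 6.29, 6.89 and 5.93 to 4.26, 3.69 and 4.36 RPKM. Of 38 growth factors and receptors 6 were higher and 6 lower (11 and 4 after centring), against 6.56% and 19% of all genes. The shares of all genes after centring were 15.9% and 10.8%. Pdgfrb, a receptor of platelet-derived growth factor, went from 18.2, 17.3 and 16.7 to 11.9, 11.2 and 12.6 RPKM (log2 change -0.51 ± 0.08). The ligand genes Pdgfc and Hbegf rose by 0.38 and 0.37, and Pdgfb fell by 0.37.

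Of the 15 tested genes of adipocytes and lipid storage 8 were lower and 1 was higher (5 and 1 after centring). The shares over all genes were 19% lower and 6.56% higher, and the median log2 change of the list was -0.21. Besides Plin4 the lower genes were led by Cebpa, a transcription factor of adipogenesis, at -0.44, and Fabp4, a fatty-acid binding protein, at -0.41. The other lower genes were Scd1, Scd2, Fasn, Acaca and Dgat1. Pparg (-0.05), Lpl (0.10), Cebpb (0.09), Cebpd (-0.24), Fabp5 (-0.03) and Dgat2 (-0.06) were not called. Plin2, which coats lipid droplets in most cell types, went the other way, from 19.5, 21.0 and 20.2 to 27.7, 28.4 and 25.6 RPKM (log2 change 0.41 ± 0.05). The summed level of the list was 387 to 409 RPKM with NT siRNA and 334 to 352 RPKM with H2AZ siRNA. Scd2 alone had a mean of 193 RPKM with NT siRNA and 161 RPKM with H2AZ siRNA. The defining adipocyte markers (Adipoq, Pparg, Fabp4, Plin1, Lpl and Cebpa) together reached only 10.1 to 11.7 RPKM with NT siRNA and 8.68 to 9.35 RPKM with H2AZ siRNA, and 1 of the 6 was at 0 in all KO libraries.

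**Figure D4:**
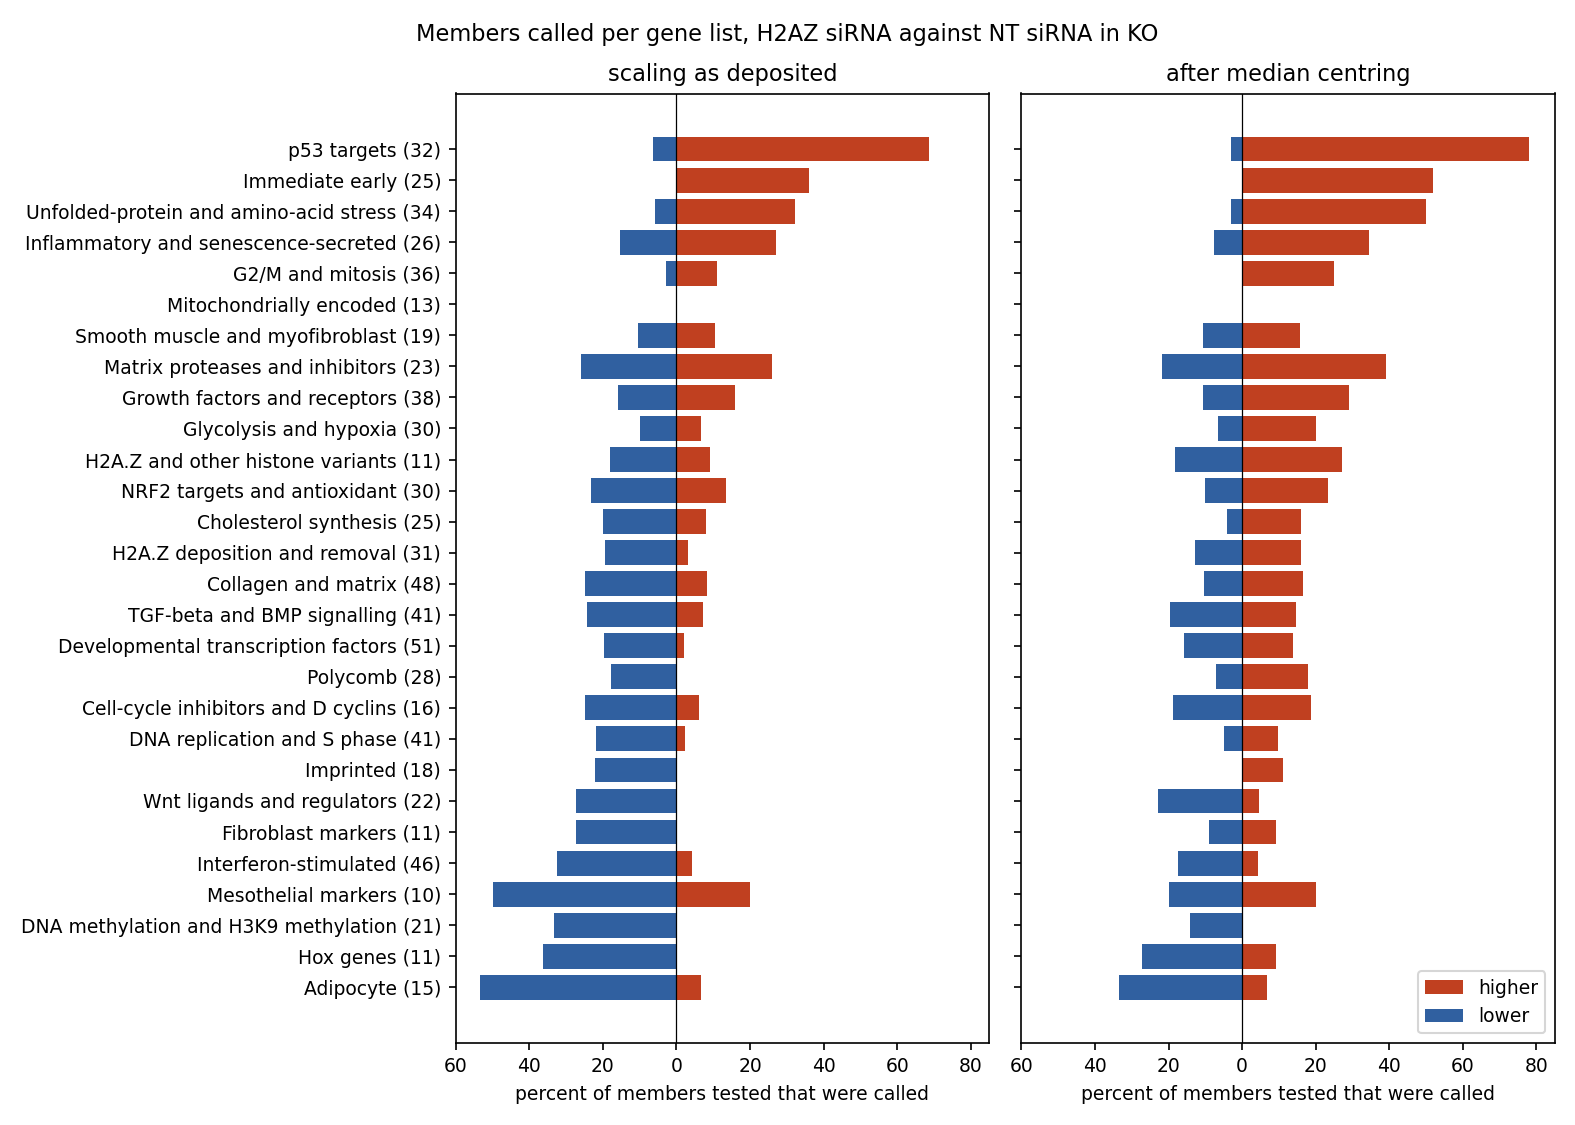
Percent of the tested members of each gene list that were higher (red, to the right) or lower (blue, to the left) with H2AZ siRNA in KO, with the scaling as deposited (left panel) and after median centring (right panel), for lists with at least 10 tested members (number in brackets). The p53 targets, with 22 of 32 higher as deposited and 25 of 32 after centring, have the longest red bar in both panels. Over all genes 6.56% were higher and 19% lower as deposited, and 15.9% and 10.8% after centring.

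Of 31 genes for the deposition and removal of H2A.Z 1 was higher and 6 lower (5 and 4 after centring). The lower share as deposited lay near the 19% over all genes, and the higher share after centring near 15.9%. Znhit1, a subunit of the SRCAP complex, went from 20.1, 19.1 and 18.2 to 14.1, 15.3 and 13.7 RPKM (log2 change -0.39 ± 0.06). Dmap1, shared by SRCAP and p400-TIP60, went from 8.20, 8.33 and 7.77 to 6.10, 6.04 and 6.14 RPKM (log2 change -0.36), and Actr8, an INO80 subunit, fell by 0.35. Anp32a, a relative of Anp32e, rose by 0.32 (adjusted p = 0.019), a call that was lost without KO NT replicate 3, without KO H2AZ replicate 1 or without KO H2AZ replicate 2. Among the 11 histone variants H2afj was the 1 gene that was higher, by 0.27 (3 after centring), a call lost without KO NT replicate 2, KO H2AZ replicate 1 or KO H2AZ replicate 2.

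Genes of DNA and H3K9 methylation had 7 lower and 0 higher of 21 by limma, against 19% and 6.56% of all genes. After centring 3 were lower and 0 higher, and the median log2 change as deposited was -0.13. At an unadjusted p under 0.05 or by limma-voom 0 were higher. Cbx1, the gene of the heterochromatin protein HP1-beta, went from 13.03, 11.1 and 10.9 to 7.15, 7.05 and 7.40 RPKM (log2 change -0.63 ± 0.07, adjusted p = 0.00012). Ehmt2, the H3K9 methyltransferase G9a, fell by 0.34, and Mbd1, a reader of methylated CpG, by 0.33. Of 24 germline genes that promoter methylation silences, 1 passed the filter and it was not called. Their summed level was 1.34 to 1.87 RPKM with NT siRNA and 0.898 to 1.65 RPKM with H2AZ siRNA, so no general activation of this list was detectable. Of 28 Polycomb genes 5 were lower and 0 higher by limma as deposited (1 higher at an unadjusted p under 0.05, 0 by limma-voom), but 2 were lower and 5 higher after centring. The lower share as deposited lay near the 19% over all genes, and the higher share after centring lay near the 15.9% over all genes. The lower count was also 2 without KO NT replicate 1 or KO H2AZ replicate 2 and 3 without KO NT replicate 2, KO NT replicate 3 or KO H2AZ replicate 3. With NT replicate 1 left out, 4 Polycomb genes were higher.

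Of 11 tested Hox genes, which give position along the body axis and limb, 4 were lower and 0 higher by limma (3 and 1 after centring, and 0 higher at an unadjusted p under 0.05 or by limma-voom). Over all genes 19% were lower and 6.56% higher. Hoxd13 went from 28.2, 26.5 and 27.6 to 20.4, 21.3 and 21.6 RPKM (log2 change -0.36 ± 0.05), with Hoxa13 at -0.43 and Hoxd12 at -0.39. Of 51 developmental transcription factors 10 were lower and 1 was higher as deposited (8 and 7 after centring), a lower share near the 19% over all genes, and 5 were lower without KO H2AZ replicate 2. The higher gene, Foxf2 (log2 change 0.20, adjusted p = 0.049), lost its call by limma-voom and when any KO library except KO H2AZ replicate 2 was left out. Irx1, an Iroquois homeobox gene, went from 5.33, 4.85 and 4.87 to 3.07, 2.71 and 2.88 RPKM (log2 change -0.63 ± 0.06), and Msx1, a homeobox gene of limb and face mesenchyme, fell by 0.53.

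Other metabolic and structural lists are given by their counts, higher first, against 6.56% higher and 19% lower over all genes. Their counts after centring, in brackets, go against 15.9% higher and 10.8% lower. Cholesterol synthesis had 2 higher and 5 lower of 25 (4 and 1 after centring), glycolysis and hypoxia 2 and 3 of 30 (6 and 2), imprinted genes 0 and 4 of 18 by limma (2 and 0, and 0 higher at an unadjusted p under 0.05 or by limma-voom) and smooth muscle 2 and 2 of 19 (3 and 2). In the glycolysis list Pdk1, which encodes a kinase that inhibits pyruvate dehydrogenase, fell by 0.58. Of the 13 mitochondrially encoded genes 0 were called by limma, 1 was lower at an unadjusted p under 0.05, 1 by limma-voom and with replicate number as a block, and 4 were called lower without KO NT replicate 2.

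The labelled cell type was checked against markers. Fibroblast markers had a summed level of 2583 to 2712 RPKM with NT siRNA and 2467 to 2681 RPKM with H2AZ siRNA, most of it from S100a4 (mean 1151 RPKM in KO NT) and Vim (778), which other cell types also express. Col1a1 and Col1a2 were at 117 and 116 RPKM, Pdgfra was at 5.40, and Lum, at 0.175, was below the filter. Of the 11 tested 3 were lower and 0 higher by limma, against 19% and 6.56% of all genes. After centring 1 was lower and 1 higher, while 1 was higher at an unadjusted p under 0.05 and 0 by limma-voom. The 3 lower genes were Pdgfrb, Col1a1 and Col1a2, the collagen genes by 0.24 and 0.23. The calls of both collagen genes were lost after centring and without KO NT replicate 1, KO NT replicate 3 or KO H2AZ replicate 2, and that of Col1a2 also without KO H2AZ replicate 1. Mesothelial markers summed to 196 to 223 RPKM with NT siRNA and 182 to 196 RPKM with H2AZ siRNA. Of the 10 tested 5 were lower and 2 higher (2 and 2 after centring), against 19% and 6.56% of all genes. Podxl went from 21.6, 20.5 and 25.3 to 14.4, 15.4 and 16.5 RPKM and Krt19 from 14.5, 15.5 and 15.1 to 22.6, 22.0 and 18.2 RPKM. Several of these markers differed between genotypes under NT siRNA. Upk3b was at a mean of 64.9 RPKM in KO NT and 0.00321 in WT NT, Podxl at 22.5 and 0.162, Krt18 at 31.7 and 3.19, and Upk1b and Wt1, at 29.3 and 4.42 in KO NT, were at 0 in WT NT. The makeup of the cells and the genotype therefore cannot be told apart in the comparison with WT. In bulk samples fewer cells of a type and less RNA per cell cannot be told apart, and the part of cells with these markers in the other results was not tested. Markers of macrophages (summed 3.20 to 4.42 RPKM), endothelium (1.75 to 2.59), epithelium (0.717 to 1.06), skeletal muscle (0.317 to 0.432) and erythroid cells (0.0526 to 0.223) were low in all 6 libraries, neural markers summed to 8.69 to 9.74 RPKM and cartilage and bone markers to 1.82 to 2.40 RPKM. The macrophage markers Cd68 and Cd14 passed the filter and were not called. The endothelial marker Kdr went from 1.61, 1.38 and 1.44 to 1.87, 2.09 and 2.02 RPKM (log2 change 0.27, adjusted p = 0.0172), a call lost without KO NT replicate 2 or 3 or KO H2AZ replicate 2.

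Whether the effect of H2AZ siRNA differed between KO and WT was tested as an interaction, the log2 change in KO minus that in WT. The comparisons share no samples. In WT 618 genes (4.88%) were higher and 1315 (10.4%) lower. Of the 831 higher genes in KO 753 (90.6%) had the same sign in WT and 326 were called there, which is 39.2% of the KO calls and 52.8% of the WT calls. Of the 2404 lower genes in KO 2287 (95.1%) had the same sign and 1049 were called, which is 43.6% of the KO calls and 79.8% of the WT calls. By limma 0 were called in the opposite direction, 7 had the opposite sign in WT at an unadjusted p under 0.05, and 0 were called in opposite directions by limma-voom. Across the genes called in KO the changes in both genotypes correlated at r = 0.850, or 0.844 without H2afz, H2afv, Gm8203 and Gm26623, and over all 12668 genes at r = 0.672. These are correlations across genes, which are not independent replicates, and all libraries share 1 fit and 1 scaling. The genes called in KO were chosen by their change in KO. The median log2 change of the higher genes was 0.26 in KO and 0.17 in WT, and that of the lower genes -0.30 and -0.19.

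The interaction was called by limma for 1 gene (0.00789% of those tested), H2afz itself. The siRNA left 8.53% of H2afz RNA in WT and 14.4% in KO, with log2 changes of -3.48 and -2.75, a difference of 0.72 with a 95% interval from 0.56 to 0.89 and an adjusted p of 0.0122. This call was lost without WT NT replicate 1 (adjusted p = 0.0627), WT NT replicate 2 (0.0574), WT H2AZ replicate 1 (0.0562) or WT H2AZ replicate 2 (0.0679). For H2afv the log2 change was -2.82 in WT, and the difference of 0.25 was not called, with an interval from -0.11 to 0.61 and an adjusted p of 0.701. Summed H2A.Z RNA was at 14.3% of control in KO and at 8.57% in WT, so the genotypes were compared at unequal residual H2A.Z RNA.

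At an unadjusted p under 0.05 the interaction held 1095 genes (8.64%). It was called for 2 genes by limma-voom on recovered reads and for 2 with replicate number as a block. The median gene had a 95% interval of ± 0.229 log2 units around its difference, with no adjustment for the number of genes. A call at the adjusted p needed a larger difference than this, as the genes below show. Plin4 fell by 1.66 in KO and by 0.88 in WT, with a difference of -0.77, an interval from -1.14 to -0.40 and an adjusted p of 0.23. A4galt fell by 0.89 in KO and had a change of -0.08 in WT (difference -0.81, adjusted p = 0.35). Mmp13 rose by 0.95 in KO and had a change of 0.41 in WT (difference 0.54, adjusted p = 0.44). In these genes the interval of the difference lay on 1 side of 0 but the adjusted p did not pass.

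Cdkn1a and Ywhae were called in WT too. Cdkn1a rose by 0.95 in WT, from a mean of 29.4 to 57.7 RPKM, and the difference from KO was 0.11 with an interval from -0.06 to 0.28. Ywhae fell by 1.17 in WT (difference -0.11, interval from -0.26 to 0.03). Mdm2 rose by 0.96 in KO and had a change of 0.59 in WT (difference 0.37, interval from -0.13 to 0.87). Ckap2 rose by 0.69 in KO and had a change of 0.24 in WT (difference 0.46, interval from 0.06 to 0.85, adjusted p = 0.514). Plk2 rose by 0.43 in KO and had a change of 0.02 in WT (difference 0.42, interval from 0.25 to 0.58, adjusted p = 0.156). The differences for Ckap2 and Plk2 were thus not called, although their intervals lay above 0. On the other side, Ano3 rose by 0.40 in KO and by 0.94 in WT (difference -0.54, interval from -0.85 to -0.22). The intervals of Ephx1 (-0.38 to -0.03) and Pltp (-0.62 to -0.16) also lay below 0, and none of these was called. Fas and Ephx1, which were not called in KO, were called higher in WT (log2 changes 0.42 and 0.37). Of the p53 targets 20 were higher and 1 lower in WT, with a median log2 change of 0.43, and 0 of the 32 had a called interaction by limma or limma-voom, with 2 above and 3 below the WT effect at an unadjusted p under 0.05. Control levels could differ between genotypes even where the change was alike. Mmp3 was at 37.6 RPKM in KO NT and 10.2 in WT NT, and Ccng1 at 56.1 in KO NT and 116 in WT NT.

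**Figure D5:**
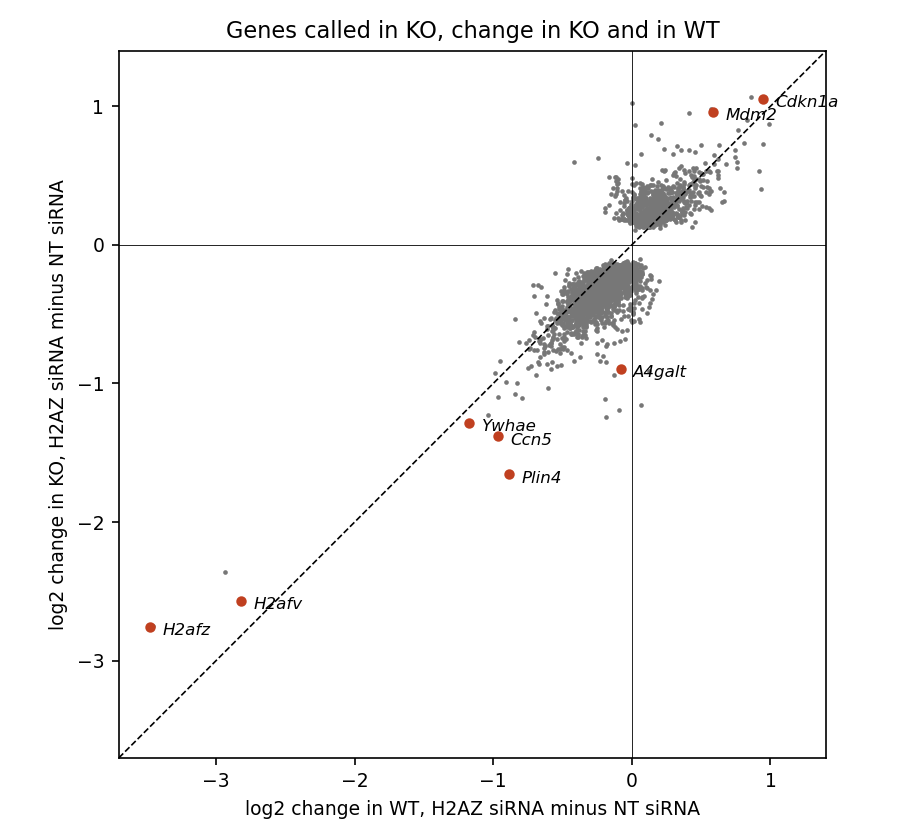
Log2 change with H2AZ siRNA in WT (horizontal axis) and in KO (vertical axis) for the 3235 genes called in KO, 1 point per gene, with the dashed line at equal change and 8 genes marked in red. The changes correlate at r = 0.850, which does not measure closeness to the line. H2afz lies above the line, and Plin4, Ccn5 and A4galt lie below it.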

How the data were processed

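RNA of mouse embryonic fibroblasts was sequenced from TruSeq Stranded Total RNA libraries in paired-end mode, per the labels' protocols. STAR, Bowtie2, deepTools and mm10 were used, per the submitters' processing notes, while the sources used here do not state the read counter, annotation, strand setting or versions. The authors deposited RPKM values per gene. All 32935 genes above 0 gave whole reads within 0.01 once each library's total and each gene's length had been found from the smallest steps of these values.

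Genes with at least 1 RPKM in at least 3 of 12 libraries were fitted as log2(RPKM + 1) in limma 3.58.1 (R 4.3.3) with an intensity trend, all 4 groups in 1 fit, which tests normalized values and not counts. Calls had a Benjamini-Hochberg adjusted p under 0.05 over all genes tested in a contrast. A pseudocount understates changes of low genes. Other steps used Python 3.11.15 with pandas 2.3.3.

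Same-numbered KO libraries had correlated deviations (0.156, 0.144 and 0.27), against -0.248 to 0.0633 for unlike numbers. WT pairs gave -0.00306, 0.0126 and -0.0885, against -0.118 to 0.124 for unlike numbers. Replicate number was not used in the main fit, so its p-values are unpaired. A block by number was among the alternatives. The KO H2AZ libraries are labelled rep and the others biol rep. The sources used here do not state whether they are separate cultures, so p-values measure the spread between these libraries, which may be technical.

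The members and the 37 gene lists were chosen with earlier results of these data known. Named genes were H2afz, H2afv, Anp32e, the 14 higher and 14 lower called genes with the largest change, a mean of at least 5 RPKM in the higher group and no overlap, and up to 3 called members per list and direction, without predicted genes, clones and small RNAs. All p53 targets were named. Some genes that the rule names are not reported here. Alternatives were median centring, a filter at 5 RPKM or none, a smaller pseudocount (0.1), rescaling without 7SL RNA, a replicate block, only the KO libraries, limma-voom on recovered reads and leaving out each library. Leaving out both NT replicates numbered 1 was added after the data were seen. The method was tested on simulated data.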

Additional observations from a re-analysis of the deposited data

Results flagged for a closer look

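The effect of H2AZ siRNA on H2afz differed between genotypes by 0.72 on the log2 scale (limma interaction, adjusted p = 0.0122). H2afz was at 26.9, 26.4 and 30.4 RPKM in the KO H2AZ libraries and at 17.2 RPKM on average in WT H2AZ, while the NT controls were at 194 and 202 RPKM. Its call was lost when any 1 of 4 WT libraries was left out, as given above. The sex of the cells, the level of mesothelial markers and the genotype cannot be told apart here.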

How the results depend on the processing

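The number of genes higher in KO (831) was 2010 with median centring and 476 with only the KO libraries. Leaving out 1 library gave 427 to 1020. The number of lower genes (2404) was 1577 with a filter at 5 RPKM, where fewer genes were tested, and 1367 with median centring. Leaving out 1 library gave 1513 to 2426. Leaving out both NT replicates numbered 1 gave 1237 and 2045. With replicate number as a block, shared by KO and WT libraries of the same number, 1019 were higher and 2692 lower. The calls of Mgp (adjusted p = 0.0546) and Foxf2 (0.055) were lost, Fas was gained, and no other call of a named gene changed. Same-numbered WT libraries did not deviate together, so this block may not hold for them.

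The interaction (1 higher, 0 lower) gave 0 higher genes with no filter, 2 with a filter at 5 RPKM, 3 with median centring (H2afz, Gm8203 and Gja1), 2 after rescaling without 7SL RNA, 2 with the replicate block, 2 by limma-voom and 0 without both NT replicates numbered 1. Leaving out 1 library gave 0 to 2 higher and 0 to 1 lower. The H2afz call was also lost with no filter (adjusted p = 0.0684). The cause of these shifts was not tested.

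Of the 28 genes with the largest change 27 kept direction and call under the 15 alternatives counted for this, the exception being Inhba. Of 151 named called genes 107 did, 44 lost the call at least once and 0 changed sign. The 15 counted are fewer than all the fits listed above, so they do not cover every library left out. Genes that were not called changed sign near 0. With centring the log2 change was 0.0524 for Gadd45a, 0.0188 for Rrm2b and 0.0121 for Tigar, and without both NT replicates numbered 1 it was 0.0239 for Rrm2b. Leaving out 1 library gave -0.0211 to 0.1831 for Anp32e, -0.0211 to 0.1185 for Pmaip1, -0.1178 to 0.0292 for Gadd45a, -0.1193 to 0.0239 for Rrm2b and -0.0050 to 0.0874 for Ccnd1. Depth limits genes under about 1 RPKM, which were not tested.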
